A study of Homo sapiens with 4 samples.

Results

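The 9 genes described here are the BCL2 family members BCL2, BCL2L1, MCL1, BCL2L11, BAX, BBC3 and PMAIP1 and the p53 targets CDKN1A and MDM2, taken by symbol from the 56595 gene symbols of the expression table. They were measured in H1 cells, an established human embryonic stem cell line, after 2 days of the first stage of hematopoietic differentiation. All cells received 40 ng/ml activin A and 50 ng/ml BMP4 in Custom mTeSR1 medium, per the sample labels; the study's methods give the 2 doses the other way round. The DMSO group (2 libraries) received the solvent, and the IWP2 group (2 libraries) received IWP2, an inhibitor of Porcupine, the acyltransferase that Wnt proteins need for their secretion; its dose was not given in the sources used here. The comparison asks how each transcript differs when Wnt secretion is blocked while the cells are driven toward mesoderm. All libraries come from a single cell line, and no label says that the replicates were separate cultures, so the p-values measure the spread between these libraries only.

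BCL2 family proteins decide whether the outer mitochondrial membrane is opened. The guardians BCL2, BCL2L1 (BCL-XL) and MCL1 hold the pore-forming effector BAX in check, and the BH3-only proteins BCL2L11 (BIM), BBC3 (PUMA) and PMAIP1 (NOXA) bind the guardians, NOXA with a preference for MCL1. The transcription factor p53 drives BAX, BBC3, PMAIP1, CDKN1A (p21, an inhibitor of cyclin-dependent kinases) and MDM2, the ubiquitin ligase that in turn degrades p53, and human pluripotent stem cells are known for their readiness to undergo mitochondrial apoptosis.

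Expression values were read as FPKM (fragments per kilobase of transcript, scaled to the mapped fragments of each library), although the table's header names no unit, and orders of level between genes rest on that reading. There were no counts, so the depth behind a value is unknown and low values carry an unknown counting error. The 4 libraries summed to between 616418 and 653850 FPKM and had between 24205 and 24512 genes above 0. Of 8 Wnt target genes, 5 were lower in IWP2 and none was higher, led by SP5 with 53.2 and 47.0 FPKM in DMSO and 0.379 and 0.363 in IWP2. All 8 mesoderm and primitive streak markers were lower, with differences of -6.91 for APLNR and -5.70 for MESP1 on the log2 scale, as were 3 of 4 endoderm markers tested. Of 8 pluripotency markers, 5 were higher, SOX2 from 0.193 and 0.174 to 35.6 and 36.1 FPKM and POU5F1 from 751 and 571 to 1854 and 1844, while TDGF1 was lower. Of 7 endothelial and blood markers, 5 were too low to be tested, GATA1 being listed at 0 in all libraries, and 1 of the 2 tested was called lower. Of 4 neural markers only PAX6 was tested, with no call. In these bulk samples, fewer cells of a type and less RNA per cell cannot be told apart, and every difference below was measured beside this shift in marker genes.

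One library stood apart for p53 targets, though not for them alone. DMSO replicate 1 exceeded DMSO replicate 2 for all 5 p53 targets among the 9 genes and for all 30 other p53 targets tested, where 49.8% of all genes tested did so. The median excess was 0.74 on the log2 scale for the 5 and 0.40 for the 30, beside 0 for all genes. All 8 genes listed for the ATF4 stress response, described further below, also exceeded DMSO replicate 2 there, with a median excess of 0.43. The values of the p53 targets described below are therefore also given without this library.

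Among the 9 genes, PMAIP1 rose in IWP2 and none fell. BCL2 stayed under the filter on low values (a mean of at least 0.5 FPKM), so 8 were tested among 15957 genes with limma on log2(FPKM + 1), and PMAIP1 alone passed an adjusted p of 0.05. That is 1 of 8, where 13.3% of all genes tested were called, 5.86% as higher and 7.39% as lower.

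**Figure D1:**
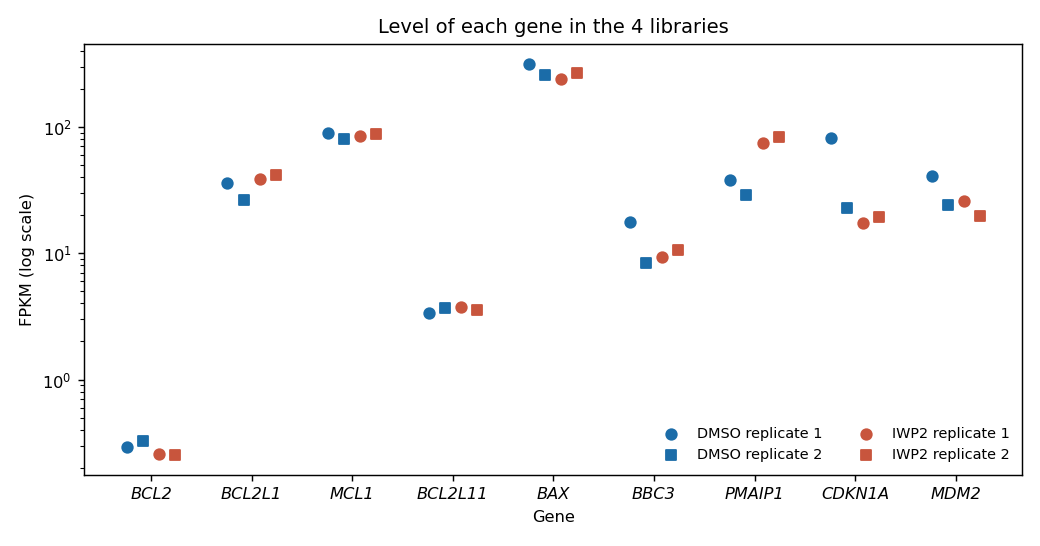
FPKM (log axis) of the 9 genes in each of the 4 libraries, with DMSO in blue, IWP2 in red, circles for replicate 1 and squares for replicate 2. PMAIP1 is the gene whose IWP2 points (74.8 and 83.5) sit clear above both DMSO points (37.7 and 28.97), and CDKN1A, MDM2 and BBC3 each have DMSO replicate 1 above the other libraries.

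By mean FPKM the order was BAX (270), MCL1 (85.6), PMAIP1 (56.2), BCL2L1 (35.6), CDKN1A (35.3), MDM2 (27.7), BBC3 (11.5), BCL2L11 (3.58) and BCL2 (0.282). BAX lay above all others in every library, and BBC3, BCL2L11 and BCL2 followed one another with no overlap, although the lowest CDKN1A library (17.2) was just under the highest BBC3 library (17.5). MCL1, at 80.3 to 89.0 FPKM, overlapped PMAIP1, at 28.97 to 83.5 FPKM, and CDKN1A, at 17.2 to 81.8 FPKM. PMAIP1, BCL2L1, CDKN1A and MDM2 overlapped one another. The steadiest genes across the 4 libraries were MCL1, with a ratio of 1.11 between its highest and lowest library, and BCL2L11, with 1.13. The most variable were CDKN1A, with 4.75, and PMAIP1, with 2.88. These 2 differed in what varied: the groups for PMAIP1, and DMSO replicate 1 against the rest for CDKN1A.

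PMAIP1 (GRCh38 chr18:59899948-59904306, plus strand) encodes NOXA. It measured 37.7 and 28.97 FPKM in DMSO and 74.8 and 83.5 FPKM in IWP2. Both IWP2 libraries were above both DMSO libraries, with means of 33.3 ± 6.14 and 79.1 ± 6.14 FPKM (SD, n = 2 each). On the log2(FPKM + 1) scale it rose by 1.23 (SE 0.15, 95% interval 0.86 to 1.61), a fold of 2.35, with an adjusted p of 0.00909 by limma. Without DMSO replicate 1 the difference was 1.42 (adjusted p = 0.0387). It kept its direction but missed the threshold without DMSO replicate 2 (1.05, adjusted p = 0.0564), without IWP2 replicate 1 (1.31, adjusted p = 0.109) and without IWP2 replicate 2 (1.15, adjusted p = 0.128), and also with no filter on low values (adjusted p = 0.0769).

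Promoter windows from RefSeq (GRCh38.p14, 250 bases before to 50 after a transcript start) were found for 8 of the 9 genes, 12 windows in all. They were searched for paired p53 sites, that is 2 adjoining copies of 10 bases, each 3 purines, C, any 2 bases, G and 3 pyrimidines, with every C and G required and at most 1 mismatch elsewhere over both copies. The motif is its own reverse complement, so both strands are read together, and these limits were set after the windows had been seen. It occurred in 0.795% of all 35116 windows and, among the 9 genes, in PMAIP1 and MDM2. The TCF/LEF core CTTTGA or CTTTGT, on either strand, occurred in 26.2% of all windows and, among the 9 genes, in 1 BCL2L1 window. A match describes letters in a window, not a bound site. The windows of PMAIP1 (chr18:59899746-59900045, plus strand) and of the inner MDM2 start (chr12:68808767-68809066, plus strand) are shown because they hold paired sites, in capitals: in PMAIP1 at bases -185 to -166 from the start, in MDM2 at -149 to -130 and -94 to -75.
PMAIP1: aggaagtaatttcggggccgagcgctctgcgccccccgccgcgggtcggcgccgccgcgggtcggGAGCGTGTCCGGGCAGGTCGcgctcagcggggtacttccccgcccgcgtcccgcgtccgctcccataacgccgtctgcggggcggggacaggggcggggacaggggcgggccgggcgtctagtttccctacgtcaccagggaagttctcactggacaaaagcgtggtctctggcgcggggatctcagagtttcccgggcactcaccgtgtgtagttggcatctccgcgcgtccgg
MDM2: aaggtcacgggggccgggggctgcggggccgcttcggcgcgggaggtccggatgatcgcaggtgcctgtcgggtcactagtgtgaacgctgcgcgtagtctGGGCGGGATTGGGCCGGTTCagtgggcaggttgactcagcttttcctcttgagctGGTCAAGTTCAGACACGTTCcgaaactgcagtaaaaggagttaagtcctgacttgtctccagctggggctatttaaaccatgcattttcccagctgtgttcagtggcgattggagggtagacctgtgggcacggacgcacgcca

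Sites outside these windows, or with bases between the copies, were not searched for, so the other genes are not shown to lack them. Both genes with paired sites in these windows are textbook p53 targets, and they differed in where their values were highest. PMAIP1 was highest in the IWP2 libraries, whereas MDM2 was highest in DMSO replicate 1.

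The other pro-apoptotic genes gave no call. BAX (chr19:48954815-48961798, plus strand) measured 317 and 256 FPKM in DMSO and 237 and 269 in IWP2. The groups overlapped, and the difference of -0.17 (95% interval -0.51 to 0.16, adjusted p = 0.449) leaves room for a modest change in either direction. Without DMSO replicate 1 the difference in BAX was -0.02 (adjusted p = 0.924). BBC3 (chr19:47220822-47232766, minus strand) measured 17.5 and 8.41 FPKM in DMSO and 9.26 and 10.7 in IWP2. DMSO replicate 1 was 1.64 times the highest other library, and both IWP2 libraries lay between the DMSO libraries. Its difference was -0.27 (95% interval -1.11 to 0.57, adjusted p = 0.644), and 0.22 without DMSO replicate 1 (adjusted p = 0.426). BCL2L11 (chr2:111119378-111168447, plus strand) measured 3.35 and 3.67 FPKM in DMSO and 3.77 and 3.54 in IWP2. These groups overlapped too, with a difference of 0.05 (95% interval -0.30 to 0.39, adjusted p = 0.855). BCL2L11 overlaps the noncoding gene MIR4435-2HG on the opposite strand, which measured 11.9 and 9.77 FPKM in DMSO and 25.2 and 26.9 in IWP2. The library kit does not mark strand, so reads from the shared stretch cannot be assigned by strand.

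Among the guardians, MCL1 was the most abundant and the steadiest. MCL1 (chr1:150574551-150579738, minus strand) measured 89.0 and 80.3 FPKM in DMSO and 85.0 and 87.9 in IWP2. The IWP2 libraries lay between the DMSO libraries, and the 95% interval of the difference, -0.19 to 0.25 around 0.03 on the log2 scale (adjusted p = 0.854), leaves out a change as large as that of PMAIP1. BCL2L1 (chr20:31664452-31723989, minus strand) measured 35.6 and 26.5 FPKM in DMSO and 38.6 and 41.5 in IWP2. Both IWP2 libraries were above both DMSO libraries, as in 27.6% of all genes tested, but the difference of 0.37 (SE 0.16, 95% interval -0.03 to 0.77) did not pass (adjusted p = 0.199). Values per gene do not separate the long and short forms of BCL2L1, MCL1 or BCL2L11, whose products can act in opposite ways.

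BCL2 (chr18:63123346-63320128, minus strand), the founding member of the family, was below the filter on low values in every library, with 0.290 and 0.326 FPKM in DMSO and 0.259 and 0.252 in IWP2. Both IWP2 libraries were below both DMSO libraries, at a level where the counting error is unknown. In a fit with no filter its difference was -0.06 (SE 0.05, adjusted p = 0.573). Of the FPKM summed over the 6 anti-apoptotic genes of the family, which came to 143 and 127 in DMSO and 139 and 144 in IWP2, BCL2 made up 0.203% and 0.256% in DMSO and 0.187% and 0.175% in IWP2. MCL1 made up between 61.0% and 63.1% in all 4 libraries. BCL2L1 made up 24.9% and 20.8% in DMSO and 27.7% and 28.8% in IWP2, and BCL2L2 (BCL-W) 12.4% and 15.7% in DMSO and 10.6% and 9.49% in IWP2. The guardian transcripts thus kept the same order, MCL1, BCL2L1, BCL2L2, in each library. BCL2L10 stayed between 0.179% and 0.514%, and BCL2A1 was listed at 0 throughout.

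CDKN1A and MDM2, the targets that act in cell cycle arrest and in feedback on p53, both had their highest value in DMSO replicate 1. CDKN1A (chr6:36676460-36687339, plus strand) measured 81.8 and 22.8 FPKM in DMSO and 17.2 and 19.3 in IWP2. Both IWP2 libraries were below both DMSO libraries, as in 31% of all genes tested, but DMSO replicate 1 was 3.60 times the highest other library, and the difference of -1.21 (SE 0.57, 95% interval -2.67 to 0.26) did not pass (adjusted p = 0.246). Without DMSO replicate 1 the difference was -0.31 (adjusted p = 0.239), and without DMSO replicate 2 it was -2.11, which passed (adjusted p = 0.0338). The size of the CDKN1A difference thus depended on which DMSO library was used. MDM2 (chr12:68808176-68850686, plus strand) measured 41.1 and 24.2 FPKM in DMSO and 25.7 and 19.7 in IWP2. Here the groups overlapped, with DMSO replicate 1 at 1.59 times the highest other library, and the difference of -0.47 (95% interval -1.17 to 0.23, adjusted p = 0.332) was -0.10 without that library (adjusted p = 0.789). MDM2 also overlaps 2 genes with values of their own, the same-strand pseudogene AC025423.2, at 17.4 and 15.02 FPKM in DMSO and 9.27 and 12.6 in IWP2, and the antisense gene AC025423.4, at 7.05 and 3.56 in DMSO and 4.26 and 4.34 in IWP2, so its level is uncertain.

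**Figure D2:**
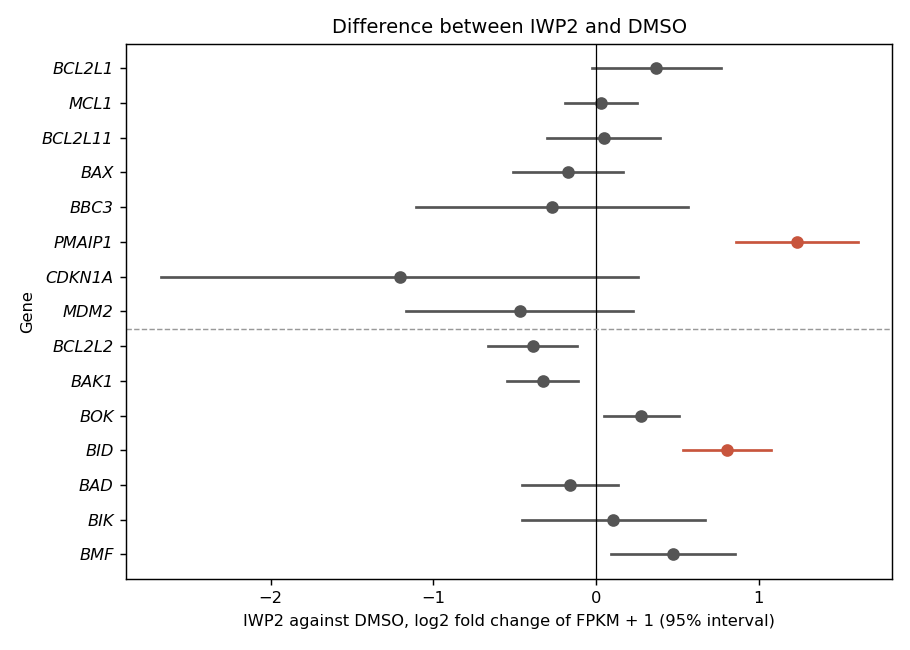
Log2 fold change of FPKM + 1, IWP2 against DMSO, with 95% limma intervals, for the 8 genes tested (above the dashed line) and for the 7 other BCL2 family genes tested (below it); red marks an adjusted p under 0.05. PMAIP1 (1.23) and BID (0.80) are called, both to the right of 0, and CDKN1A has the widest interval, -2.67 to 0.26.

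Ratios between pairs of the 9 genes were read within each library, which removes the scaling between libraries, and is given without a test. The MCL1 to PMAIP1 ratio was 2.36 and 2.77 in DMSO and 1.14 and 1.05 in IWP2, so the FPKM of the NOXA transcript approached that of MCL1 in both IWP2 libraries. The BCL2L1 to BAX ratio was 0.112 and 0.103 in DMSO and 0.163 and 0.154 in IWP2. The ratio of BCL2 to BCL2L1, both guardians, was 0.00814 and 0.0123 in DMSO and 0.00672 and 0.00606 in IWP2. In these 3 ratios the groups did not overlap, the MCL1 to PMAIP1 ratio being lower and the BCL2L1 to BAX ratio higher in IWP2. How often ratios of other gene pairs separate in this way was not tested. For single genes, both IWP2 libraries were above both DMSO libraries in 27.6% of all genes tested and below them in 31%. BCL2 lay under the filter on low values, and neither BCL2L1 nor BAX was called. The ratio of MDM2 to CDKN1A, a pair of p53 targets, was 0.502 and 1.06 in DMSO and 1.49 and 1.02 in IWP2, and its groups overlapped.

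**Figure D3:**
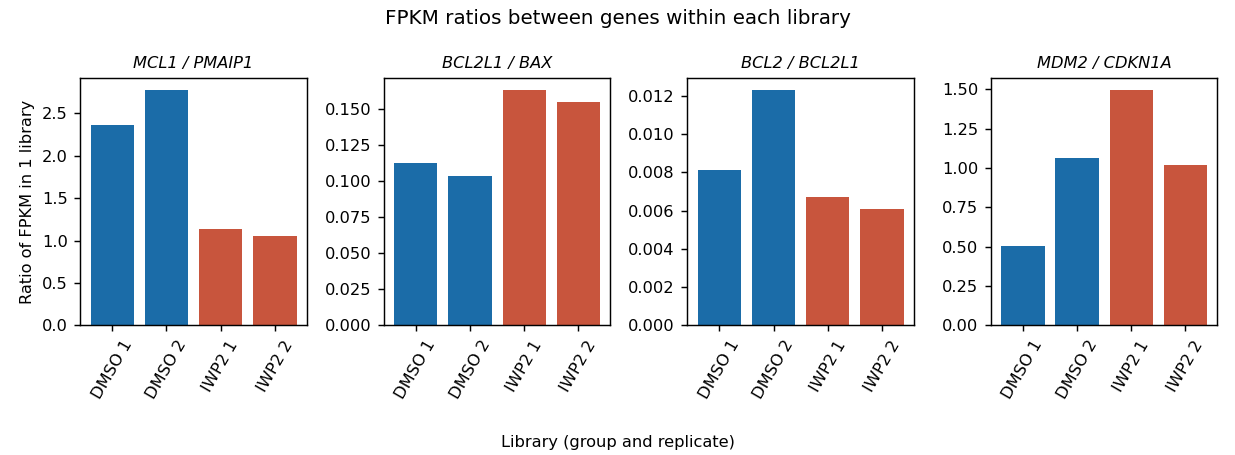
FPKM ratios between pairs of the 9 genes in each library (bars from 0, 1 bar per library, DMSO in blue and IWP2 in red). MCL1 / PMAIP1 is 2.36 and 2.77 in the DMSO bars and 1.14 and 1.05 in the IWP2 bars, and BCL2L1 / BAX is 0.112 and 0.103 in DMSO and 0.163 and 0.154 in IWP2.

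In the rest of the BCL2 family, BID rose and no gene fell among 7 tested of 10, where 13.3% of all genes tested were called. BID, a BH3-only protein that caspase-8 cleaves into its active form, measured 32.4 and 28.6 FPKM in DMSO and 51.2 and 56.7 in IWP2. The groups did not overlap, and BID rose by 0.80 on the log2 scale (SE 0.11, adjusted p = 0.0117 by limma), a call lost on leaving out any single library (0.72 to 0.89, adjusted p = 0.0574 to 0.134). BAK1, the effector that works beside BAX, measured 28.1 and 27.2 FPKM in DMSO and 21.8 and 21.9 in IWP2. Its groups were apart with little spread, but the difference of -0.33 (95% interval -0.54 to -0.11) did not pass after adjustment (adjusted p = 0.0694). BCL2L2 likewise did not pass, at 17.8 and 20.0 FPKM in DMSO and 14.7 and 13.7 in IWP2 (-0.39, adjusted p = 0.0821). BMF, BOK, BAD and BIK gave adjusted p-values between 0.111 and 0.796. HRK, a BH3-only gene outside the test for its low level and chosen for mention after its values were seen, was at 0.221 and 0.106 FPKM in DMSO and 0.795 and 0.719 in IWP2. The median difference over the 7 was 0.11, beside -0.01 for all genes tested.

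USP7, the deubiquitinase that acts on p53 and MDM2, was the most abundant gene in the list of p53 regulators. It measured 57.0 and 58.4 FPKM in DMSO and 58.3 and 49.4 in IWP2. The groups overlapped, and USP7 did not pass (-0.10, adjusted p = 0.583). The p53 protein is controlled mainly by its stability, which these values do not measure.

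Of 30 other p53 targets, all of them tested, 1 rose and 3 fell in IWP2. Among all genes tested, 5.86% were called higher and 7.39% lower, so the number of calls lay near the share over all genes. GADD45A, a stress sensor that acts in growth arrest and DNA repair, measured 94.4 and 66.8 FPKM in DMSO and 24.5 in each IWP2 library. The IWP2 libraries matched closely and lay far below both DMSO libraries, and GADD45A fell by 1.66 on the log2 scale (SE 0.17, adjusted p = 0.00638). It stayed past the threshold without DMSO replicate 1 (-1.41, adjusted p = 0.0311) and without DMSO replicate 2 (-1.90, adjusted p = 0.0292), but not without IWP2 replicate 1 (adjusted p = 0.109) or 2 (adjusted p = 0.114). AEN, a nuclease of apoptotic cells, fell from 94.99 and 71.2 FPKM to 52.5 and 48.4 (-0.69, adjusted p = 0.0462), and POLH, a translesion DNA polymerase, fell from 4.29 and 3.51 to 2.09 and 1.87 (-0.72, adjusted p = 0.0465). NINJ1, which acts in the rupture of the plasma membrane of dying cells, rose from 12.6 and 10.3 to 17.7 and 21.2 FPKM (0.72, adjusted p = 0.0387). These last 3 calls were lost on leaving out any single library, with adjusted p-values between 0.0581 and 0.267. Without DMSO replicate 1 the differences were -0.49 for AEN, -0.60 for POLH and 0.85 for NINJ1. In that fit GADD45A was the 1 gene of the list called lower and PERP, a membrane protein induced by p53, the 1 called higher (0.96, adjusted p = 0.0449). PERP, named after its values were seen, measured 26.8 and 18.3 FPKM in DMSO and 35.6 and 37.3 in IWP2 and did not pass with all libraries (0.69, adjusted p = 0.077). RPS27L, the most abundant of the list, measured 134 and 103 FPKM in DMSO and 99.4 and 103 in IWP2 and did not pass (-0.21, adjusted p = 0.383; -0.02 and 0.876 without DMSO replicate 1).

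The median difference over the 30 was -0.22, beside -0.01 for all genes tested. Of the 30, 23 were below 0, where 8298 of all 15957 genes tested were. DMSO replicate 1 was the highest library for 25 of the 30 and for 4 of the 5 p53 targets among the 9 genes, PMAIP1 being the exception, while 24.7% of all genes tested had their highest value there. It was at least 1.5 times the highest other library for 6 of the 30 and for 3 of the 5, where 2.63% of all genes were. The 6, named after their values were seen, were the secreted stress factor GDF15 (49.1 FPKM against 8.36 to 11.1 in the others), the death receptor FAS (1.72 against 0.291 to 0.512), SPATA18, PHLDA3, BTG2 and SESN1. Without this library the median over the 30 was 0.08 and 12 of them were below 0. The tilt of the p53 targets toward lower values in IWP2 was therefore not seen when DMSO replicate 2 was the only control. DMSO replicate 1 was the higher control for all 30, so leaving it out had to raise each difference. Which of the DMSO libraries was the unusual one was not tested. The part of this library in the result for any single target was not tested beyond these values.

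**Figure D4:**
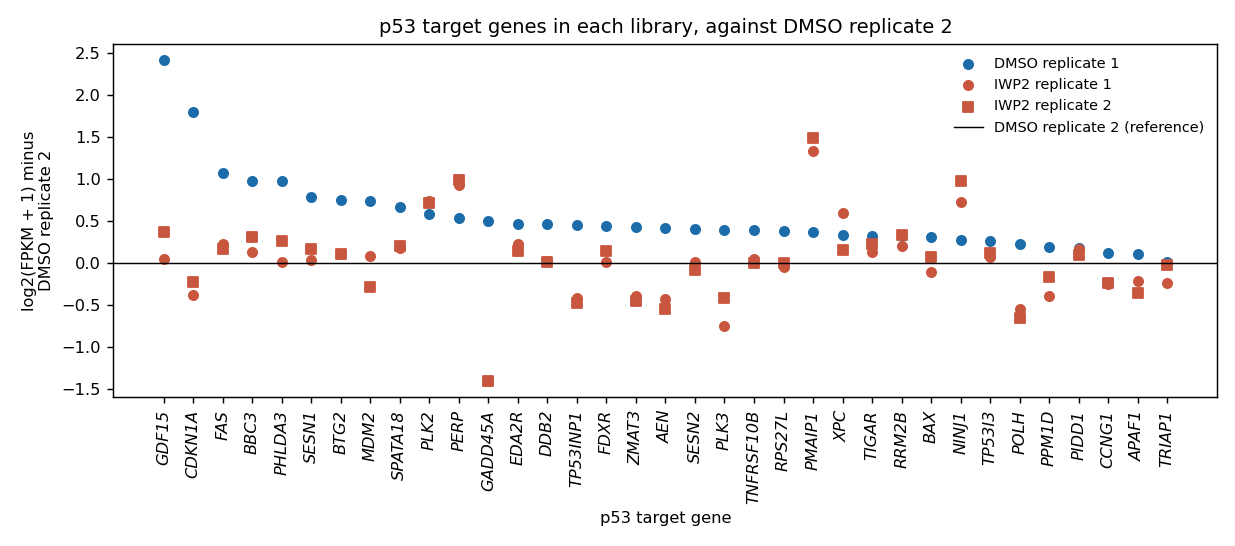
log2(FPKM + 1) minus the value in DMSO replicate 2 (line at 0) for 35 p53 targets, the 5 among the 9 genes and the 30 others, ordered by DMSO replicate 1 (blue circles), with IWP2 replicates 1 and 2 as red circles and squares. All 35 blue points are above 0, up to GDF15 and CDKN1A, whereas the IWP2 points scatter around 0, with PMAIP1, PERP and NINJ1 high and GADD45A low. The reference was the lower DMSO library for all 35, so where the points lie against 0 depends on that choice.

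Of the caspase and death machinery genes, 15 of 16 were tested. CYCS, which encodes the cytochrome c that BAX and BAK1 release, was the most abundant of the list, at 126 and 139 FPKM in DMSO and 129 in each IWP2 library, and did not pass (-0.04, 95% interval -0.25 to 0.18, adjusted p = 0.815). The median difference over the 15 was -0.12, beside -0.01 for all genes tested. Of the 15, 11 were below 0, where 8298 of all 15957 genes tested were.

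CDKN1A was set beside the other cyclin-dependent kinase inhibitors, of which 5 of 6 were tested. CDKN1B (p27), of the same CIP/KIP family and the most abundant of the list, measured 14.99 and 15.2 FPKM in DMSO and 10.6 and 10.9 in IWP2. The replicates of each group lay close together and the groups did not overlap, and CDKN1B fell by 0.46 on the log2 scale (SE 0.10, adjusted p = 0.0411 by limma), a call lost on leaving out any single library (-0.48 to -0.44, adjusted p = 0.123 to 0.228). DMSO replicate 1 did not stand apart for CDKN1B as it did for CDKN1A.

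PMAIP1 is also known as a target of ATF4, the transcription factor of the integrated stress response, so the genes of that response were read beside it. Of 8 tested, TRIB3, a pseudokinase induced by ATF4, fell and none rose, where 13.3% of all genes tested were called. TRIB3 measured 10.3 and 7.19 FPKM in DMSO and 3.38 and 2.91 in IWP2, without overlap, and fell by 1.21 on the log2 scale (SE 0.19, adjusted p = 0.0199 by limma), a call lost on leaving out any single library (-1.44 to -0.98, adjusted p = 0.06 to 0.182). ATF4 itself measured 426 and 354 FPKM in DMSO and 372 and 398 in IWP2, with overlap (-0.01, 95% interval -0.31 to 0.28, adjusted p = 0.951). These values do not measure the ATF4 protein or its activity, and whether ATF4 acted on PMAIP1 was not tested. As with the p53 targets, DMSO replicate 1 was the highest library for 7 of these 8 genes, 1 of which (SESN2) is also in the p53 list. Without DMSO replicate 1 the median difference over the 8 was 0.04, and DDIT4, an inhibitor of mTORC1 signaling named after its values were seen, passed as higher (1.01, adjusted p = 0.0456). With all libraries DDIT4 measured 40.6 and 17.9 FPKM in DMSO and 35.9 and 38.5 in IWP2 and did not pass (0.45, adjusted p = 0.485).

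The tested genes whose profile over the 4 libraries was closest to that of PMAIP1 were FAM84B, ACTA1 and AC107464.1, with root mean square differences of 0.0152, 0.032 and 0.037 on the centred log2 scale. FAM84B measured 17.1 and 13.2 FPKM in DMSO and 35.4 and 39.6 in IWP2. ACTA1, the skeletal muscle actin, measured 12.3 and 9.64 in DMSO and 24.8 and 29.3 in IWP2. Likeness over 4 libraries of 2 groups is a description, since many genes share such a profile by their group difference alone.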

How the data were processed

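RNA from 4 samples (2 DMSO, 2 IWP2) was extracted with Trizol and made into libraries with a TruSeq RNA kit. The authors deposited 1 table of values per gene, read here as FPKM (58365 rows, 56595 symbols); its header names no unit, and the values are decimals of at least 0 whose sum differed between libraries. The submitters' processing notes name BWA, Bowtie, RSEM and hg19 without versions or roles, but 97.4% of the 56382 gene IDs found in GENCODE 29 had the same position in GRCh38, which is the build of the coordinates given here. No counts were used here, so the depth per sample and its precision are unknown.

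For a repeated symbol (343 of them) the row with the highest mean was kept. Genes with a mean of at least 0.5 FPKM (15957) were tested with limma 3.58.1 in R 4.3.3 on log2(FPKM + 1), with a pseudocount of 1, eBayes with trend, a two-sided test and Benjamini-Hochberg adjustment over all genes tested (threshold 0.05). The study states no test for these values. An exact permutation test of 2 against 2 cannot give a p below 0.333 and was not run. Columns were matched to groups by their names, the DMSO replicates taking their number from the column name, and 0 columns were left unmatched. Tables and figures were made in Python 3.11.15 with pandas 2.3.3 and matplotlib 3.10.9. The fit was also run on simulated data, in which the largest spreads of the real genes were left out. That run does not show how the fit handles a library that stands apart. The alternatives were another pseudocount, filter, scaling, variance prior and treatment of repeated symbols, the replicate number as a block, and each library left out.

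The 9 genes and the gene lists were chosen with earlier results of these data known. Named in the text are the 9 genes, from each list the called genes (at most the 4 with the largest difference per direction) and the gene with the highest mean, and the 3 genes nearest in profile to each called one of the 9; markers are named in part, and some listed genes are not reported here. Other names were chosen after their values were seen, as were the motif limits and the counts on DMSO replicate 1. Promoter windows are from RefSeq (GRCh38.p14). No protein sequences were used here.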

Additional observations from a re-analysis of the deposited data

How the results depend on the processing

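With 2 libraries per group, calls depended on the settings more than directions did. Over the genes named and their alternatives, 420 comparisons kept direction and side of the threshold, 86 lost the call, 1 gained it and 8 turned sign. With no filter on low values, 118 genes were higher and 266 lower among all genes, and 0 of the 9 genes and 0 of the listed genes in either direction were called (PMAIP1 adjusted p = 0.0769 by limma); the cause was not tested. Leaving out 1 library, which leaves a lone library assumed to vary like the other group, gave 19 to 300 genes higher and 88 to 431 lower, 0 to 1 of the 9 genes higher and 0 to 1 lower (CDKN1A, without DMSO replicate 2), and 0 to 2 listed genes higher and 0 to 2 lower, where all libraries gave 4 and 5. PMAIP1 was called in 8 of 12 alternatives, with a difference of 1.05 to 1.42 and an adjusted p of 0.00459 to 0.128. Listed genes lower came to 3 with the median shift set to 0 (AEN and POLH lost) and to 3 without the trend, which also gave 2 higher. Signs turned on leaving out 1 library, none of them with a call: the differences ran from -0.042 (without DMSO replicate 2) to 0.104 for MCL1, from -0.0034 (without DMSO replicate 1) to 0.0999 for BCL2L11, from -0.757 to 0.22 (without DMSO replicate 1) for BBC3, from -0.22 to 0.0159 (without IWP2 replicate 2) for USP7, from -0.104 to 0.0302 (without DMSO replicate 2) for CYCS, and from -0.146 to 0.12 (without DMSO replicate 1; 0.034 without IWP2 replicate 1) for ATF4, which was also at 0.0029 with the median shift set to 0.

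The replicate numbers were taken as names only, since no label states a pairing. With 2 pairs the deviations of same-numbered libraries correlated at 0.138 over genes, which does not settle whether they were paired. Some transcripts named below followed the number. With the replicate number as a block, 849 genes were higher and 1073 lower, the 9 genes kept 1 higher and 0 lower (PMAIP1 adjusted p = 0.0133), and the listed genes had 3 higher and 3 lower, NINJ1 (0.0581), POLH (0.0587) and CDKN1B (0.0682) missing the threshold on adjusted p.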

Other observations

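Some abundant short or mitochondrial transcripts followed the replicate number and not the group. MT-ATP8 measured 33374 and 9279 FPKM in DMSO replicates 1 and 2 and 26236 and 11660 in IWP2 replicates 1 and 2. RN7SK, the small nuclear RNA that holds P-TEFb, measured 177 and 12.8 in DMSO and 175 and 16.9 in IWP2, and RMRP 104 and 2.66 in DMSO and 104 and 11.5 in IWP2. CDKN1A had another profile, high in DMSO replicate 1 alone (81.8 FPKM) and at 17.2 FPKM in IWP2 replicate 1. These genes were chosen after their values were seen.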
